A study of Homo sapiens with 8 samples.

Results

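The genes described here are the ZNF genes that lie between ZNF506 and ZNF254 on chromosome 19 and between ZNF727 and ZNF92 on chromosome 7. They were chosen because, in an earlier look at these arrays, many neighbours in these stretches had lower signal in A673 cells carrying a hairpin against RING1B than in A673 cells carrying a control hairpin. The stretches hold 45 listed genes, 35 on chromosome 19 and 10 on chromosome 7. Of these, 39 were named on the array, out of 14884 genes in all: 29 on chromosome 19 and all 10 on chromosome 7. ZNF66, ZNF738, ZNF723, ZNF730, ZNF724 and ZNF726 had no named probe set and were not analysed here beyond their promoters.

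Expression was measured on whole-transcript microarrays in 2 established Ewing sarcoma lines, A673 and SK-ES1, at 2 arrays for each of 4 groups: A673 with the hairpin against RING1B (shRING1B), A673 with the hairpin against GFP (shGFP), SK-ES1 with shRING1B and SK-ES1 with shGFP. Every group carries a hairpin, so no group shows the lines without one, and the number of different hairpins against RING1B was not given in the sources used here. RING1B is encoded by RNF2, a gene not analysed here, and the knockdown itself was therefore not checked. The labels do not say whether the 2 arrays of a group are separate cultures. The p-values thus reflect the spread of these samples alone, and that spread may be technical.

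Zinc-finger proteins of the KRAB class pair a KRAB domain with a run of zinc fingers that read DNA. The KRAB domain recruits the corepressor TRIM28, which brings in the histone methyltransferase SETDB1 and leaves the silencing mark H3K9me3, often on transposable elements. The genes lie in clusters that grew by tandem duplication, and each cluster can itself carry H3K9me3. RING1B is a catalytic subunit of the Polycomb repressive complex PRC1, which ubiquitylates histone H2A.

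All values are log2 expression values on the scale the authors deposited, in which the median of all probe sets was 4.06 and the medians of single arrays lay between 4.01 and 4.10. Arrays of 1 group correlated at 0.991 to 0.994 (Pearson's r over the 14884 named genes), and no pair of arrays held equal values. Arrays of 1 line with different hairpins correlated at 0.9827 to 0.9875 in A673 and at 0.9909 to 0.9918 in SK-ES1. Of 6 measured markers of Ewing sarcoma cells, CD99 lay at 11.2 to 12.3 and the transcription factor NKX2-2 at 7.51 to 8.47, and none was called between hairpins in either line. Of 8 measured markers of other cells, LUM, a fibroblast proteoglycan, differed most, with 2.96 log2 units more in SK-ES1 than in A673, and none was called between hairpins. In bulk RNA, fewer cells of a type and less RNA per cell cannot be told apart. Members share long stretches of sequence, so a probe set may also bind the transcripts of a relative, and values of single members are uncertain for that reason.

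The promoters show what the members share beyond their place, which the choice of members did not use. RefSeq's table for GRCh38.p14 gives a promoter, 250 bases before to 50 bases after the start, for 37 of the 45 members. The stretches below are the 160 bases before the start, 5′ to 3′. ZNF208, ZNF681 and ZNF429 are shown for the largest A673 differences, ZNF91 and ZNF93 for their known retrotransposon targets, ZNF138 as a member above the median of all probe sets in both lines, ZNF431 as a member with a small A673 difference, and ZNF117 as the member with the largest difference between lines. Capitals mark 3 motifs, each searched on both strands and none overlapping another in the printed stretches: CCAATCAG, which holds the CCAAT box, CTGTCACT, and CTTCCGG, which read on the opposite strand is CCGGAAG and holds the core bound by ETS factors, the family of FLI1.
ZNF208 (chr19:22010944-22011103, minus strand): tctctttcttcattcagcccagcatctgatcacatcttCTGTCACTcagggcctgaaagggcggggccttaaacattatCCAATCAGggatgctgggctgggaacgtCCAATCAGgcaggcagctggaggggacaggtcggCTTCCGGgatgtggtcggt
ZNF681 (chr19:23758892-23759051, minus strand): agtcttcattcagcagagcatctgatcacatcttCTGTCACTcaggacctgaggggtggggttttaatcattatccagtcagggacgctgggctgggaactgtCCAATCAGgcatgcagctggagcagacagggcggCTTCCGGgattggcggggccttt
ZNF429 (chr19:21505442-21505601, plus strand): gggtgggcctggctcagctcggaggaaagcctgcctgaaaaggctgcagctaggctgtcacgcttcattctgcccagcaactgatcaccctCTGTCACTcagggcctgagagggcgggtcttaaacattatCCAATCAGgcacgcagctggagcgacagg
ZNF91 (chr19:23395472-23395631, minus strand): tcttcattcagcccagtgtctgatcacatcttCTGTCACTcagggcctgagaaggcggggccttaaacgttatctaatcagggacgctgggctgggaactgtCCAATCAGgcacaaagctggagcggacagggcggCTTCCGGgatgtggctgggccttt
ZNF93 (chr19:19900786-19900945, plus strand): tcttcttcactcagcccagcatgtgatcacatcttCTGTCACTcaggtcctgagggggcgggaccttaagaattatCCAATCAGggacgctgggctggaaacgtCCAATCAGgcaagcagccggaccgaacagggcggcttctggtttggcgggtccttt
ZNF138 (chr7:64794268-64794427, plus strand): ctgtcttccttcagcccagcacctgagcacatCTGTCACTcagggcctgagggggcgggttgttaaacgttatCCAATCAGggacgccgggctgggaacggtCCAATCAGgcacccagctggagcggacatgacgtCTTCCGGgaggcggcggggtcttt
ZNF431 (chr19:21141880-21142039, plus strand): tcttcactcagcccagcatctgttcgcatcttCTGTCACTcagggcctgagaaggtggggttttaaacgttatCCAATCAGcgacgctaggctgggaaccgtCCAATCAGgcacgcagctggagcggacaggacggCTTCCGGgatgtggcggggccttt
ZNF117 (chr7:64991037-64991196, minus strand): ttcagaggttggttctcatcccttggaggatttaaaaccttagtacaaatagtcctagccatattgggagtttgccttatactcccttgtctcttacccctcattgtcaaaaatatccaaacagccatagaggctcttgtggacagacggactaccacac

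CCAATCAG was present in 34 of the 37 promoters (91.9%), against 4.75% of the 27305 genes in the table, 13.8% of other ZNF genes on chromosome 19 and 9.76% of ZNF genes on other chromosomes. It was present in all 27 promoters of the chromosome 19 stretch and in 7 of 10 on chromosome 7, and 20 of the 37 held it more than once, against 0.59% of all genes. All 54 matches read forward and lay 87 to 23 bases before the start, with a median of 58 bases. CTGTCACT was present in 31 promoters (83.8%), against 2.35% of all genes and 9.33% of the other ZNF genes on chromosome 19, at a median of 128 bases before the start. CTTCCGG was present in 28 (75.7%), against 12.2% of all genes and 42.7% of the other ZNF genes on chromosome 19. The pair GGAAGGAA, 2 ETS cores in a row as in the GGAA repeats that EWSR1-FLI1 binds, was in 3 promoters (8.11%), against 4.5% of all genes. CCAATCAG is the 8-letter word held by most member promoters, and CTGTCACT the next that shares no 5 letters in a row with it, so their shares describe the family and test nothing.

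Over all 666 pairs of member promoters, the 300-base windows were 73.8% identical at the median (range 36.9% to 91.0%). ZNF714 and ZNF431, neighbours on chromosome 19, were the closest pair, and ZNF208 and ZNF91 were 86.0% identical. A few windows on chromosome 7 were unlike the rest: ZNF117 and ZNF735 were each other's nearest at 52.7%, ZNF679 reached 53.4%, and the first of the 2 windows of ZNF273 reached 52.3%. ZNF117, ZNF735 and ZNF679 held none of the 4 motifs. ZNF117 shares its locus with the endogenous retrovirus ERV3-1, from which read-through transcripts are known. Of the 32 measured members with a promoter, the 29 with CCAATCAG were all lower in A673 shRING1B than in A673 shGFP, and the 3 without were ZNF117, ZNF679 and ZNF735. RefSeq's table gave no promoter for ZNF676, ZNF729, ZNF99 and ZNF728, which had higher means in A673 shRING1B, so their motifs are unknown. ZNF117 had a log2 change of -1.65 in A673 without the motif, while ZNF679 (0.12) and ZNF735 (-0.06) were dim in every group. With so few promoters without the motif, and members chosen on this contrast, no relation of motif and change was tested.

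In A673, 34 of the 39 measured members had a lower mean with shRING1B than with shGFP, with a median log2 change of -0.80 beside 0.01 for all genes. These values chose the members and are given as a description, with no test. For the record of the fit across all genes, and with nothing read from it, 17 members had an adjusted p under 0.05, all lower, where 3.04% of all genes were called lower and 0.705% higher. In 32 members both shRING1B arrays lay below both shGFP arrays, a pattern that 23.9% of all genes show, and in 2 they lay above, as in 26% of all genes. A log2 change of -1 or less was found in 14 members and in 0.833% of all genes.

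Members with the largest differences lay at several places along the chromosome 19 stretch. ZNF208 measured 3.81 and 3.90 with shRING1B in A673, against 6.34 and 6.21 with shGFP, a log2 change of -2.42 (SE 0.15, n = 2 each). ZNF681 measured 3.33 and 4.67 with shRING1B, against 6.04 and 6.76 with shGFP, a log2 change of -2.40 (SE 0.37). ZNF429 measured 3.77 and 3.72 with shRING1B, against 5.73 and 6.18 with shGFP, a log2 change of -2.21 (SE 0.16). In all 3 genes both shRING1B arrays lay below both shGFP arrays, and the ZNF681 arrays with shRING1B stood furthest apart. ZNF675, also known as TIZ and described as an inhibitor of TRAF6 signalling, measured 3.56 and 4.17 with shRING1B, against 5.66 and 5.64 with shGFP (log2 change -1.79). ZNF257 measured 4.14 and 4.62 with shRING1B, against 5.69 and 6.54 with shGFP (log2 change -1.74). The groups of both genes were separate, and the 2 shGFP arrays of ZNF257 differed by more than its 2 shRING1B arrays.

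Among the members with lower signal were ZNF91 and ZNF93, chosen here for their known retrotransposon targets. The targets of other members were not considered. ZNF91, which represses SVA elements, measured 4.55 and 4.97 in A673 with shRING1B, against 6.13 and 6.69 with shGFP (log2 change -1.65, SE 0.19). ZNF93, which represses a class of LINE-1 elements, measured 6.75 and 6.82 with shRING1B, against 7.49 and 7.85 with shGFP (log2 change -0.88, SE 0.15). Neither gene's groups overlapped. Between the bounds of the stretch, ZNF626 (-1.48), ZNF486 (-1.38), ZNF253 (-1.35), ZNF737 (-1.34) and ZNF90 (-1.01) also had log2 changes below -1. ZNF737 was the least even of these, with shGFP arrays at 4.37 and 5.80 above shRING1B arrays at 3.70 and 3.79.

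The size of the difference varied among members with A673 signal well above the median of all probe sets. ZNF431 measured 6.72 and 6.60 with shRING1B, against 6.79 and 6.87 with shGFP, a log2 change of -0.17 (SE 0.12). ZNF100 measured 7.31 and 7.48 with shRING1B, against 7.93 and 8.09 with shGFP (log2 change -0.62), and ZNF43 had 6.76 and 6.69, against 7.40 and 7.56 (log2 change -0.75). ZNF100 and ZNF43 were lower by under 1 log2 unit from levels above 7 with shGFP, while the highest shRING1B array of ZNF431 lay close under its lowest shGFP array. ZNF254, at the end of the stretch, had a log2 change of -0.57, and ZNF506, at its start, -0.47. The rest with lower means on chromosome 19 were ZNF493 (-0.996), ZNF85 (-0.96), ZNF492 (-0.80), ZNF708 (-0.69), ZNF714 (-0.46), ZNF682 (-0.45), ZNF430 (-0.43) and ZNF98 (-0.28).

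On chromosome 7 the median log2 change in A673 was -0.85 over 10 members, with 9 below 0. ZNF117 measured 6.08 and 6.58 with shRING1B, against 7.88 and 8.09 with shGFP (log2 change -1.65, SE 0.20). ZNF138 measured 7.56 and 7.56 with shRING1B, against 8.85 and 9.11 with shGFP (log2 change -1.42, SE 0.12). ZNF680 measured 5.45 and 5.39 with shRING1B, against 6.49 and 6.63 with shGFP (log2 change -1.14, SE 0.14). In all 3 genes the shRING1B arrays lay at least 1 log2 unit below the nearest shGFP array. ZNF92 (-0.95), ZNF107 (-0.94), ZNF736 (-0.75) and ZNF727 (-0.66) had smaller log2 changes with separate groups, and the groups of ZNF273 (-0.33) overlapped.

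A few members went the other way. Of the 39, 5 had a higher mean with shRING1B: ZNF676 (0.40), ZNF679 (0.12), ZNF99 (0.11), ZNF729 (0.09) and ZNF728 (0.07). ZNF676, ZNF729, ZNF99 and ZNF728 lie in 1 part of the chromosome 19 stretch, beside ZNF98 and ZNF492, and had A673 means of 2.58, 2.89, 2.34 and 3.63. Background signal was not measured for single probe sets, so whether these genes were transcribed at all was not tested.

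The arrays of the A673 control group were uneven for these genes. In 31 of 39 members (79.5%) shGFP replicate 2 lay above shGFP replicate 1, while this held for 48.8% of all genes. The median level of the chromosome 19 members was 4.55 and 4.80 in the A673 shRING1B arrays, against 5.84 and 6.21 in the A673 shGFP arrays. Without shGFP replicate 2 the median log2 change on chromosome 19 was -0.62, beside -0.80 with all arrays. Whether this unevenness has to do with the result was not tested.

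**Figure D1:**
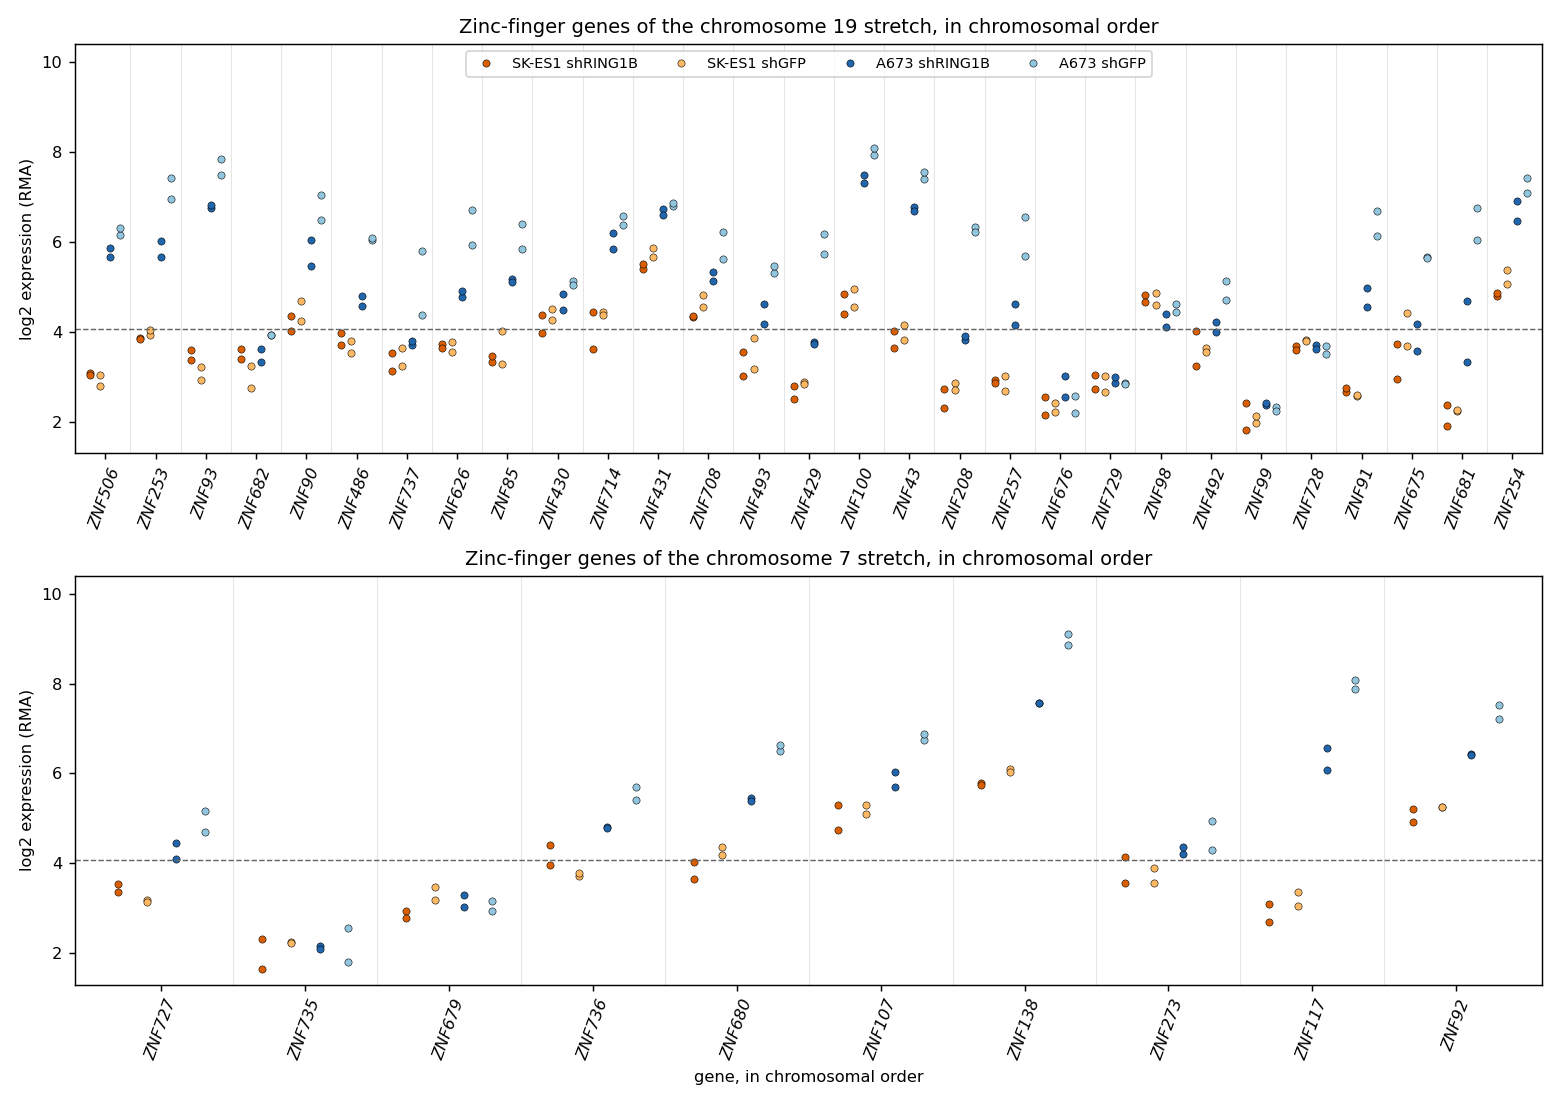
Log2 expression values of the measured members on each of the 8 arrays, in their order along each chromosome, with the SK-ES1 shRING1B arrays first. The chromosome 19 members have a median of 4.55 and 4.80 in the A673 shRING1B arrays and of 5.84 and 6.21 in the A673 shGFP arrays. In all 4 SK-ES1 arrays their median is lower, from 3.55 to 3.76.

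**Figure D2:**
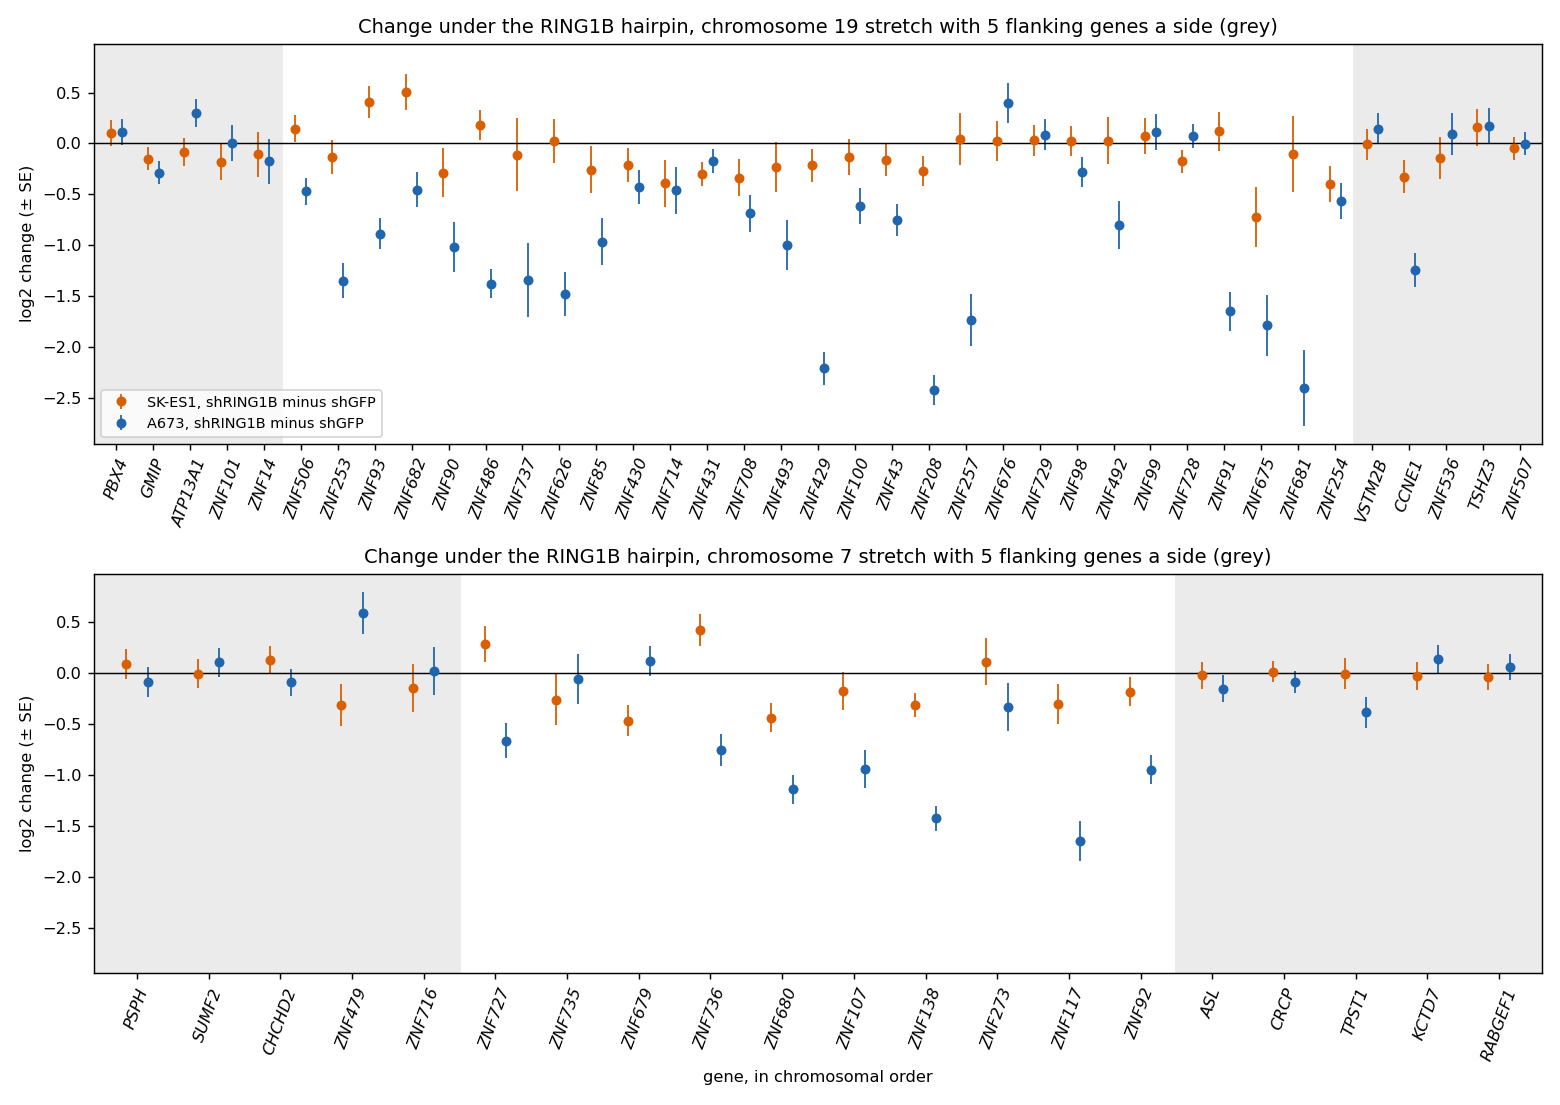
Log2 change of shRING1B minus shGFP for each measured member in A673 and in SK-ES1, in chromosome order, with standard errors of the model. In A673, 34 of 39 changes are below 0 and reach -2.42, and in SK-ES1 they lie between -0.72 and 0.51.

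The edges of the stretches were described with the 5 nearest measured protein-coding genes on each side. No limit was set on distance, so some of them lie far off, across a centromere, and where the A673 changes end was not tested. Over these 20 flanking genes, the A673 log2 changes had a median of 0.01, and 9 were below 0. The nearest flanking genes of chromosome 19 were ZNF14 (-0.18) before ZNF506 (-0.47), and VSTM2B (0.14) after ZNF254 (-0.57). On chromosome 7 they were ZNF716 (0.02) and ZNF479 (0.59) before ZNF727 (-0.66), and ASL (-0.15) after ZNF92 (-0.95). The exception was CCNE1, the cyclin E1 gene across the centromere on chromosome 19, with 6.22 and 6.41 in A673 shRING1B cells, against 7.63 and 7.49 in A673 shGFP cells (log2 change -1.24). Without CCNE1 the lowest flanking change was -0.39, for the sulfotransferase gene TPST1. Other measured genes inside the stretches were MIR1270 (-0.31), LINC00664 (0.05), CCNYL6 (0.18), GOLGA2P9 (0.30) and LOC641746 (0.50), none of them a zinc-finger gene.

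ZNF genes outside the stretches had medians near that of all genes. Of all genes, 3.04% were called lower in A673 and 0.705% higher. The 196 other ZNF genes of chromosome 19 had a median A673 log2 change of -0.02, and 6 were called lower and 1 higher. The 232 ZNF genes of other chromosomes had a median of -0.02, with 11 called lower and 2 higher. The largest falls among them by limma were ZNF518B on chromosome 4 (-1.49, adjusted p = 0.00095), ZNF521 (-1.14, adjusted p = 0.0013), ZNF804A (-1.07, adjusted p = 0.0017), ZNF568 (-1.004, adjusted p = 0.019) and ZNF322 (-0.95, adjusted p = 0.016). The rises were ZNF367 (0.69, adjusted p = 0.019), ZNF57 (0.60, adjusted p = 0.029) and ZNF483 (0.51, adjusted p = 0.046). Without A673 shGFP replicate 2 the adjusted p was 0.19 for ZNF568, 0.16 for ZNF322, 0.20 for ZNF367, 0.23 for ZNF57 and 0.27 for ZNF483. These 5 also lost the call without other arrays: without A673 shRING1B replicate 1 their adjusted p lay between 0.054 and 0.091. Without A673 shRING1B replicate 2 it was 0.083 for ZNF568, 0.085 for ZNF367, 0.12 for ZNF57 and 0.16 for ZNF483, and without A673 shGFP replicate 1 it was 0.052 for ZNF322, 0.070 for ZNF57 and 0.14 for ZNF483. Leaving out an SK-ES1 shRING1B array gave 0.050 for ZNF57 and 0.059 for ZNF483, and leaving out an SK-ES1 shGFP array gave 0.065 for ZNF483. With each line fitted alone the adjusted p was 0.066 for ZNF322, 0.067 for ZNF367, 0.080 for ZNF57 and 0.094 for ZNF483, and with the mean of a gene's probe sets it was 0.27 for ZNF57. ZNF483 also lost its call under repeated quantile normalization (0.066), cyclic loess (0.064) and a trended variance (0.063).

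**Figure D3:**
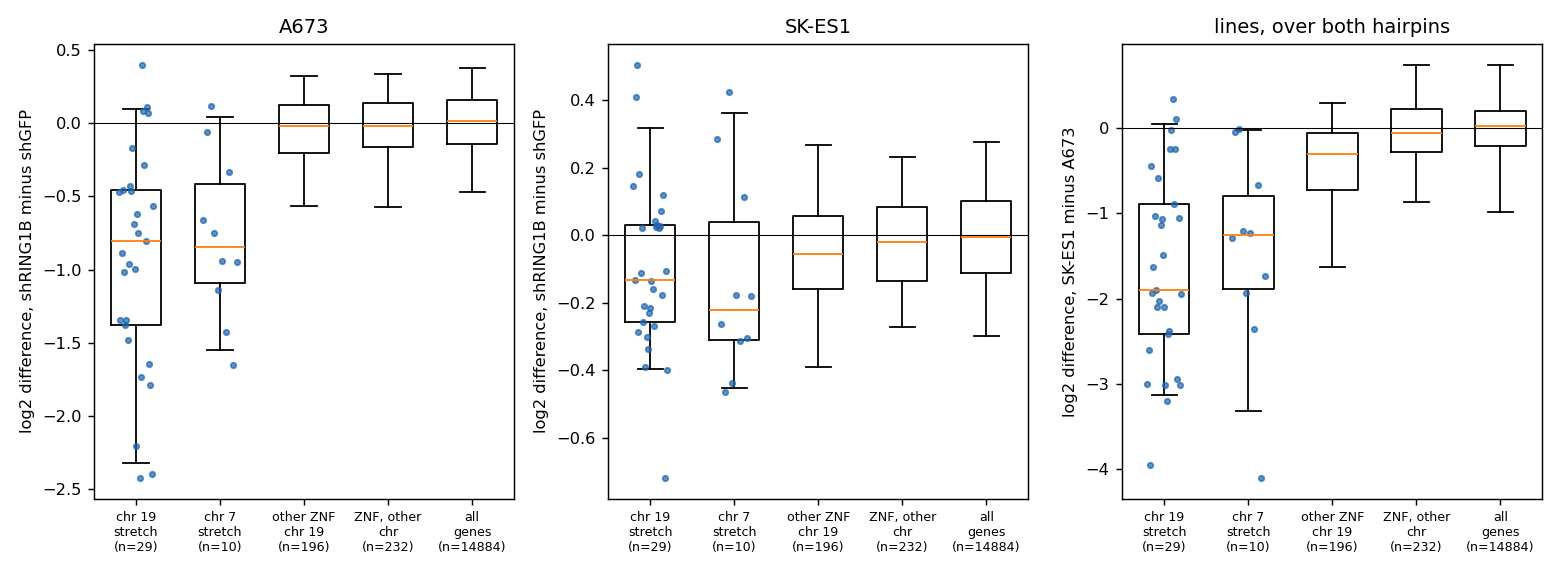
Spread of log2 changes for the chromosome 19 members, the chromosome 7 members, other ZNF genes of chromosome 19, ZNF genes of other chromosomes and all genes, in each comparison. In A673 the medians are -0.80 and -0.85 for the members, -0.02 and -0.02 for the other ZNF genes and 0.01 for all genes.

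The SK-ES1 arrays were not used to choose the members, so there the hairpin effect was tested. None of the 39 members was called by limma, with adjusted p from 0.54 to 0.997, where 0.0672% of all genes were called. At an unadjusted p under 0.05, 6 members (15.4%) were lower and 3 higher, where 4.13% of all genes were lower and 3.23% higher. Members below 0 numbered 24 and members above 0 numbered 15. The median log2 change was -0.16, beside -0.0039 for all genes. Both shRING1B arrays lay below both shGFP arrays in 10 members and above them in 5, where 19.3% and 17.8% of all genes did so.

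Of the 5 members with the largest A673 differences, ZNF208, ZNF681, ZNF429 and ZNF257 had SK-ES1 intervals that include 0, and ZNF675 did not. ZNF208 measured 2.72 and 2.30 with shRING1B in SK-ES1, against 2.86 and 2.70 with shGFP, a log2 change of -0.27 (95% interval -0.60 to 0.06). ZNF429 measured 2.79 and 2.50 with shRING1B, against 2.88 and 2.84 with shGFP (-0.22, 95% interval -0.57 to 0.14). ZNF91 measured 2.65 and 2.75 with shRING1B, against 2.57 and 2.59 with shGFP (0.12, 95% interval -0.30 to 0.54). These 3 genes, and ZNF681 and ZNF257 given next, lay below the median of all probe sets on all 4 SK-ES1 arrays. How low a value can read there was not measured. ZNF681 measured 2.37 and 1.91 with shRING1B, against 2.23 and 2.25 with shGFP (-0.10, 95% interval -0.93 to 0.72), and its interval is wide. ZNF257 measured 2.92 and 2.86 with shRING1B, against 2.67 and 3.02 with shGFP (0.04, 95% interval -0.53 to 0.61), with overlapping groups.

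Some members lay above that median in SK-ES1. Over the 4 SK-ES1 arrays 11 members had a mean above it. Of these, 10 had a log2 change below 0, with a median of -0.29, and none was called. ZNF138 measured 5.78 and 5.73 with shRING1B, against 6.11 and 6.03 with shGFP, a log2 change of -0.31 (95% interval -0.58 to -0.04, adjusted p = 0.62 by limma). Its groups did not overlap. ZNF431 measured 5.40 and 5.51 with shRING1B, against 5.86 and 5.65 with shGFP (-0.30, 95% interval -0.57 to -0.03, adjusted p = 0.64 by limma). ZNF254 measured 4.79 and 4.87 with shRING1B, against 5.38 and 5.07 with shGFP (-0.40, 95% interval -0.79 to -0.0053, adjusted p = 0.67 by limma). The groups of these 2 genes were separate as well. ZNF92 measured 5.20 and 4.93 with shRING1B, against 5.25 and 5.24 with shGFP (-0.18, 95% interval -0.49 to 0.13). ZNF107 measured 4.75 and 5.29 with shRING1B, against 5.10 and 5.30 with shGFP (-0.18, 95% interval -0.59 to 0.24), with overlapping groups. Of the 11 members, 3 were lower at an unadjusted p under 0.05 by limma, where 4.13% of all genes were.

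Members below that median varied in both directions. ZNF680 measured 3.65 and 4.02 with shRING1B, against 4.36 and 4.18 with shGFP (-0.44, 95% interval -0.76 to -0.11, adjusted p = 0.55 by limma). ZNF675 had the lowest change, with 2.94 and 3.73 with shRING1B, against 4.42 and 3.69 with shGFP (-0.72, 95% interval -1.38 to -0.06, adjusted p = 0.65 by limma), and its groups overlapped. ZNF682 had the highest, with 3.61 and 3.39 with shRING1B, against 2.74 and 3.24 with shGFP (0.51, 95% interval 0.12 to 0.89, adjusted p = 0.57 by limma). ZNF93 measured 3.58 and 3.38 with shRING1B, against 2.93 and 3.21 with shGFP (0.41, 95% interval 0.06 to 0.75, adjusted p = 0.61 by limma). The ZNF682 and ZNF93 arrays with shRING1B lay above those with shGFP, and none of the 4 changes passed the threshold. On chromosome 7, ZNF736 (0.42) and ZNF727 (0.29) had higher means with shRING1B, and ZNF679 (-0.47, 95% interval -0.80 to -0.13) a lower one.

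The lines themselves differed at these genes. Averaged over both hairpins, 32 of 39 members were lower in SK-ES1 than in A673 and 1 was higher by limma, where 22.2% of all genes were called lower and 18.8% higher. The median log2 difference was -1.90 on chromosome 19 and -1.26 on chromosome 7, beside 0.02 for all genes. The same 4 A673 arrays chose the members, and genes that are lower with shRING1B in A673 need signal there, so the difference between lines is not independent of the choice and is given as a description. All 4 SK-ES1 arrays lay below all 4 A673 arrays in 28 members, a pattern of 20% of all genes, and the log2 difference was -1 or less in 28 members and in 4.86% of all genes.

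ZNF117 averaged 3.06 ± 0.27 in SK-ES1 and 7.16 ± 0.98 in A673 (SD, n = 4 arrays each over both hairpins), a log2 difference of -4.10 (SE 0.14). The SK-ES1 mean of ZNF117 is below the median of all probe sets, and signal above background was not measured, so no fold is given. ZNF93 averaged 3.28 ± 0.28 in SK-ES1 and 7.23 ± 0.53 in A673, a log2 difference of -3.95 (SE 0.11). ZNF43 averaged 3.90 ± 0.22 in SK-ES1 and 7.10 ± 0.44 in A673 (log2 difference -3.20, SE 0.11). In all 3 genes each SK-ES1 array lay below each A673 array. ZNF100 (-3.02), ZNF681 (-3.01), ZNF506 (-3.01) and ZNF91 (-2.95) followed, then ZNF253 (-2.60), ZNF208 (-2.42), ZNF257 (-2.38) and ZNF138 (-2.36). ZNF138 averaged 5.91 ± 0.18 in SK-ES1, against 8.27 ± 0.83 in A673.

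The other 7 members were not called lower. Calls of members between the lines are a description, since the same A673 arrays chose the members. ZNF98 was higher in SK-ES1 than in A673 by 0.34 (limma adjusted p = 0.023), with overlapping arrays. The ZNF98 call was lost when A673 shRING1B replicate 1 (adjusted p = 0.078) or A673 shGFP replicate 2 (0.088) was left out, and likewise in SK-ES1 for replicate 1 of shRING1B (0.081) and of shGFP (0.090), and under cyclic loess normalization (0.053), all by limma. ZNF676, ZNF729, ZNF99, ZNF728, ZNF735 and ZNF679 were not called, with log2 differences between -0.25 and 0.10. Of these, ZNF99 was called without SK-ES1 shRING1B replicate 2 (limma adjusted p = 0.0080). The smallest called fall was that of ZNF682 (-0.45, limma adjusted p = 0.013), which was lost without the same array (adjusted p = 0.056).

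The order of the groups was alike in most members. In 29 of 39 members both A673 shRING1B arrays lay above all 4 SK-ES1 arrays, where 26.3% of all genes did so. In 27 of these the A673 shRING1B arrays also lay below both A673 shGFP arrays, an order that 5.41% of all genes show and that in part follows from how the members were chosen. ZNF208 measured 3.81 and 3.90 in A673 shRING1B cells, between 6.21 or more in A673 shGFP cells and 2.86 or less in SK-ES1 cells. The SK-ES1 groups differed past the threshold in no member. The other ZNF genes of chromosome 19 were also mostly lower in SK-ES1 (81.6% below 0, against 47.5% of all genes), with a smaller median difference of -0.31. Of these 196, 100 (51%) were called lower and 11 higher, where 22.2% of all genes were called lower and 18.8% higher. ZNF genes of other chromosomes had a median of -0.06, with 62 (26.7%) called lower and 48 higher of 232.

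**Figure D4:**
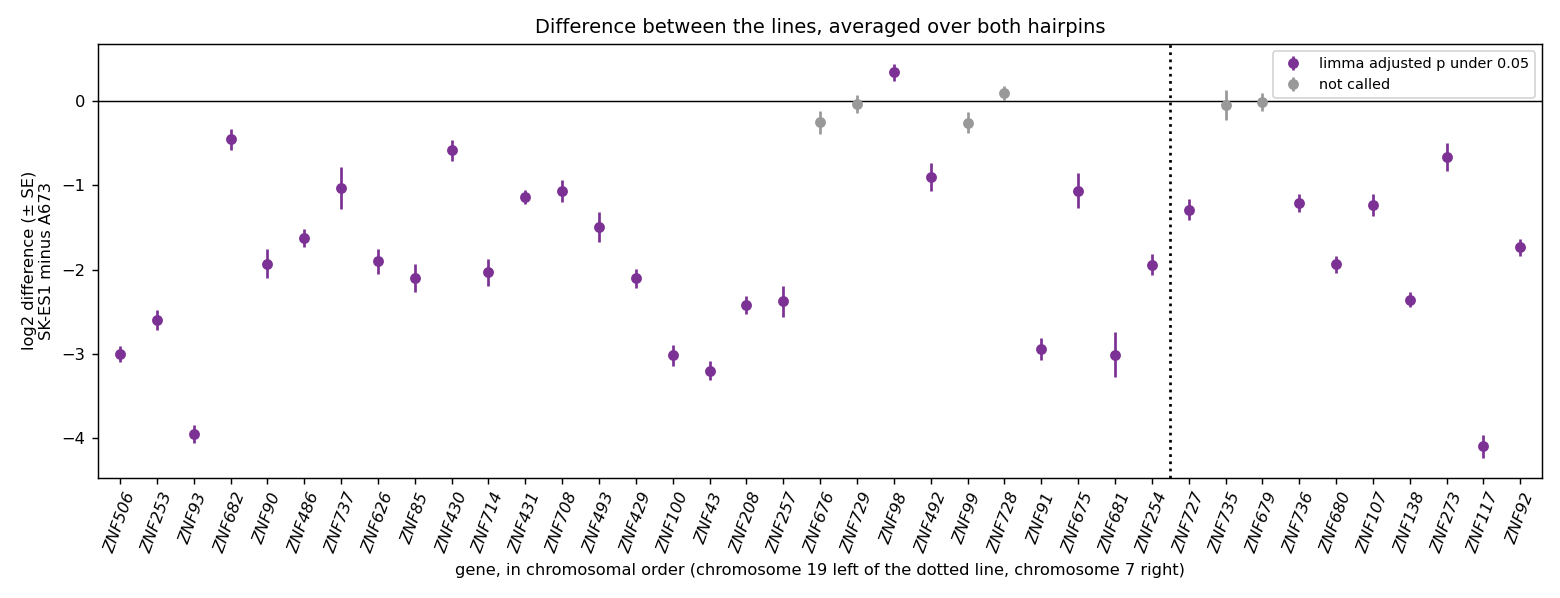
Log2 difference of SK-ES1 minus A673, averaged over both hairpins, for each measured member in chromosome order, with standard errors of the model. Differences reach -4.10 for ZNF117, and ZNF98 is the 1 member called higher in SK-ES1, at 0.34.

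The partners of KRAB proteins were taken as a list. Of 15 listed KRAB corepressor genes, 12 were measured. In A673 1 fell and 0 rose, where 3.04% of all genes were called lower and 0.705% higher, and the median log2 change was -0.06. The gene that fell was CBX3, which encodes an HP1 protein that reads H3K9 methylation. It measured 8.60 and 8.54 in shRING1B cells, against 9.27 and 9.58 in shGFP cells (-0.86, limma adjusted p = 0.016). The other HP1 genes on the list, CBX1 (0.11) and CBX5 (0.05), were not called in A673. The CBX3 call was lost without A673 shGFP replicate 2 (adjusted p = 0.18), A673 shRING1B replicate 1 (0.061) or A673 shRING1B replicate 2 (0.069). TRIM28, the corepressor that KRAB domains bind, measured 10.10 and 10.09 in A673 shRING1B cells, against 9.90 and 9.80 in A673 shGFP cells (0.25, limma adjusted p = 0.26), and its SK-ES1 log2 change was 0.04. MORC3, a chromatin protein that takes part in silencing of endogenous retroviruses, had an A673 log2 change of -0.32 (limma adjusted p = 0.21). In SK-ES1 none of the 12 was called, and between the lines, where 22.2% of all genes were lower and 18.8% higher, 5 were lower in SK-ES1 (CBX3, CBX5, CHD3, HDAC2 and MORC3) and 1 higher (HDAC1, a call lost without A673 shGFP replicate 1, limma adjusted p = 0.051).

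Of 23 listed genes of the HUSH complex, H3K9 and DNA methylation and related silencing, 20 were measured. In A673 2 fell and 0 rose, with a median of -0.04, where 3.04% of all genes were called lower and 0.705% higher. TRIM33, a relative of TRIM28, measured 9.29 and 9.16 in shRING1B cells, against 9.77 and 9.91 in shGFP cells (-0.61, limma adjusted p = 0.029). DNMT3B, a de novo DNA methyltransferase, measured 5.38 and 5.49 in shRING1B cells, against 6.03 and 5.98 in shGFP cells (-0.57, limma adjusted p = 0.041). Both calls were lost without any 1 of the 4 A673 arrays, with adjusted p between 0.065 and 0.23 for TRIM33 and between 0.092 and 0.22 for DNMT3B. The DNMT3B call was also lost without either SK-ES1 shRING1B array (adjusted p = 0.068) and under repeated quantile normalization (0.058). With each line fitted alone the adjusted p was 0.071 for TRIM33 and 0.074 for DNMT3B. The next by p in A673, not called, were ATRX (-0.42, limma adjusted p = 0.11) and DNMT1 (0.28, limma adjusted p = 0.20). In SK-ES1 none was called between hairpins. Between the lines 7 of 20 were lower in SK-ES1 (22.2% of all genes), led by TRIM24 (-1.06) and TRIM33 (-0.99), and 4 were higher (18.8% of all genes), led by ZNF274 (0.53), a KRAB zinc-finger protein that guides H3K9me3 to zinc-finger gene clusters. The other calls between the lines were DNMT1, UHRF1, ATRX, MORC2 and EHMT1 (lower) and KDM4C, PPHLN1 and SUV39H1 (higher). Of these, MORC2, EHMT1, PPHLN1 and SUV39H1 lost the call when some single arrays were left out, with limma adjusted p up to 0.075, 0.12, 0.12 and 0.14.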

How the data were processed

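The authors deposited log2 expression values per probe set, 1 for each of 48144 probe sets on each of 8 arrays, made from 30 ng of RNA per sample per the labels' protocols. The tools named in the submitters' processing notes are RMA and limma, with versions not given in the sources used here. RMA equalizes the arrays at the level of single probes, which hides most of any shift common to most genes. Probe sets were named from the platform's annotation: 16098 (33.4%) had 1 symbol, 0 had several and 32046 were unnamed here. The probe set of highest mean over the 8 arrays stood for a gene (14884 genes, 779 with more than 1 probe set); all 39 members had 1 probe set, and 0 symbols were updated.

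With limma 3.58.1 (R 4.3.3), 4 group means were fitted over the 8 arrays (4 residual and 6 prior degrees of freedom). P-values are two-sided, adjusted by the Benjamini-Hochberg method over all genes of a contrast, and called under 0.05. The script was tested on simulated data. Promoters come from RefSeq's GRCh38.p14 table, and identity from global alignment in Biopython 1.88. No build was given for the arrays. Arrays were grouped by the line and hairpin in their labels, and replicate numbers follow accession order. The members, gene lists and motifs were chosen with earlier results of these data known. All members are covered by name, with values by array for those of largest A673 change or highest SK-ES1 signal. Other ZNF genes are the up to 5 largest called falls and rises in A673. Listed genes are those of smallest p, with CBX1 and CBX5 given beside CBX3. No scanner files were used, so the number of arrays limits the precision. Alternatives were another normalization (quantile, cyclic loess), each line fitted alone, a trended variance, the mean of a gene's probe sets, a filter on dim genes, and leaving out each array.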

Additional observations from a re-analysis of the deposited data

Results flagged for a closer look

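For 5 members the hairpin groups did not overlap in either line, with every shRING1B array lower in A673 and higher in SK-ES1. The difference between the lines was not tested, because the A673 contrast chose the members. The log2 changes in SK-ES1 were 0.41 for ZNF93, 0.51 for ZNF682, 0.12 for ZNF91, 0.29 for ZNF727 and 0.42 for ZNF736. In A673 they were -0.88 for ZNF93, -0.45 for ZNF682, -1.65 for ZNF91, -0.66 for ZNF727 and -0.75 for ZNF736. The 5 are 15.6% of the 32 members whose shRING1B arrays all lay lower in A673, and the same pattern holds for 16.2% of all genes that were lower in that way, so the share is near the background. None of the 5 was called in SK-ES1, and all 5 had mean signals in SK-ES1 below the median of all probe sets.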

How the results depend on the processing

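No paired analysis was run, because the replicate numbers follow accession order and the labels name no pairs. The sample titles number all arrays in a single series in which the hairpins alternate, and whether neighbours in it were handled together is not stated. The count of members called in A673, 17, was 10 without A673 shGFP replicate 2 and ran from 10 to 19 as each array was left out. The median A673 log2 change on chromosome 19, -0.80, was -1.02 without A673 shGFP replicate 1 and -0.62 without A673 shGFP replicate 2, and on chromosome 7 it ran from -0.95 to -0.70. In SK-ES1 the count of members called stayed at 0 as each array was left out, and the medians ran from -0.13 to -0.07 on chromosome 19 and from -0.23 to -0.09 on chromosome 7. Between the lines the count ran from 32 to 33, and the medians from -2.03 to -1.71 on chromosome 19 (-1.71 without A673 shGFP replicate 2) and from -1.34 to -1.18 on chromosome 7. With dim genes left out, which keeps 25 members, the chromosome 7 median between the lines was -1.74. That filter used the mean signal over both lines, and only 11 members had an SK-ES1 mean above the median of all probe sets. The other kept members passed through their A673 signal, and members dim in both lines were dropped. The filter thus depends on the difference between the lines, so the -1.74 is no test of it. Genes called in all numbered 557 in A673, against 213 with each line fitted alone, 1052 with a trended variance, and 317, 241, 101 and 321 without A673 shGFP replicate 1, A673 shRING1B replicate 1, A673 shGFP replicate 2 and A673 shRING1B replicate 2. In SK-ES1 they numbered 10, against 34 with a trended variance, 21 with dim genes left out, and 2 to 4 without 1 of its arrays. No called value changed direction. Members not called in SK-ES1 did so in places: 22 to 28 of the 39 lay below 0 across the alternatives that kept all members, and 34 to 35 in A673. Limits are the 2 arrays a group, unmeasured signal over background, and probe sets that relatives may share.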
